A study of Homo sapiens with 6 samples.

Results

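The 10 tubulin genes described here comprise 4 alpha-tubulins (TUBA1A, TUBA1B, TUBA1C and TUBA4A), 5 beta-tubulins (TUBB, TUBB2A, TUBB2B, TUBB3 and TUBB6) and the gamma-tubulin TUBG1. They were taken by gene symbol, with earlier results of these data known. They make up 10 of the 33835 named gene rows of the count table. RNA sequencing was done on DU145, an established human prostate cancer line, transduced either with a short hairpin against E6AP, the ubiquitin ligase encoded by UBE3A (shE6AP, 3 libraries), or with a wobble control (wobble, 3 libraries). Doxycycline at 0.2 μg/ml for 2.5 days is given for both groups; it induces the hairpin. The labels describe neither the wobble sequence nor whether each group is a pool or a clone, nor do they tie the libraries of a group to separate cultures. The p-values therefore rest on a spread among libraries that could be technical only. Levels are in TMM-scaled CPM, a gene's reads relative to all gene reads of its library. Each log2 fold change sets shE6AP over wobble, and SE is its standard error. A gene was called higher or lower at an adjusted p under 0.05 in edgeR's quasi-likelihood test, adjusted over the 19433 genes tested.

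Between 21558506 and 30488217 reads were assigned to genes per library. UBE3A stood at 14.2, 14.5 and 14.97 CPM in shE6AP and at 54.1, 55.4 and 57.9 CPM in wobble. The epithelial keratins KRT8 and KRT18 averaged 370 and 442 CPM in shE6AP, against 318 and 351 CPM in wobble. Of the 5 epithelial markers KRT8, KRT18 and EPCAM were called higher (log2 fold change of EPCAM 1.04), and KRT19 and CDH1, which encodes E-cadherin, lower at -0.13 and -0.16. The summed level of the 3 blood markers with a row lay between 3.04 and 3.47 CPM in shE6AP and between 2.84 and 3.50 CPM in wobble. The 5 endothelial and fibroblast markers with a row summed to 17.9 to 19.4 CPM in shE6AP and 13.5 to 16.7 CPM in wobble. The libraries did not overlap, with all shE6AP above, as for 30.6% of genes tested. Most of the sum was COL1A1, called higher, with a mean of 17.35 CPM in shE6AP and 13.12 CPM in wobble. COL1A2 was called lower, with a mean of 0.245 CPM in shE6AP and 1.202 CPM in wobble. The part of these markers in the results was not tested.

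Microtubules are hollow polymers of alpha- and beta-tubulin dimers, and gamma-tubulin nucleates them at centrosomes. Dividing epithelial cells draw mostly on a few broadly expressed isotypes, while TUBB2A, TUBB2B and TUBB3 are known above all from neurons, and TUBB3 in carcinomas has been studied in relation to taxane resistance. When free tubulin accumulates, TTC5 recognises the first residues of nascent alpha- and beta-tubulin chains and the mRNA being translated is degraded, a loop called tubulin autoregulation.

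The first codons are shown because the residues they encode, which this loop reads, set alpha and beta members apart from gamma-tubulin. Among the alpha members, and among the beta members, the first 4 codons differ only by synonymous bases. Each sequence gives the first 24 coding bases of the principal GENCODE v29 transcript, with the first 4 codons in capitals. TUBA1A and TUBA1C had the same 24 bases as TUBA1B, and TUBB6 the same as TUBB3.
TUBA1B: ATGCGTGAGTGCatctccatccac
TUBA4A: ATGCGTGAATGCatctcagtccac
TUBB: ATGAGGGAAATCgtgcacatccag
TUBB2A: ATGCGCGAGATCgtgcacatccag
TUBB2B: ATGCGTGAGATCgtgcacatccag
TUBB3: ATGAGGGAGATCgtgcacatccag
TUBG1: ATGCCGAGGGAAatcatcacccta

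Isotypes differ most in the acidic tail at the end of the protein, which carries polyglutamylation and faces motors and severing enzymes. The last coding bases of the 5 beta-tubulins follow, with the stop codon in capitals.
TUBB: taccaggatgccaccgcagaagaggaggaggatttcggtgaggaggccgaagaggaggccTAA
TUBB2A: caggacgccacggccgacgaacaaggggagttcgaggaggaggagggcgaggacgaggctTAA
TUBB2B: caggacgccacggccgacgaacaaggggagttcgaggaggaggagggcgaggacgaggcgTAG
TUBB3: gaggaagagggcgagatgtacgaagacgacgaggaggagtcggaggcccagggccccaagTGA
TUBB6: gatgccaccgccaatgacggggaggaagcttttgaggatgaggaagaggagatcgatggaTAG
TUBB2A and TUBB2B are nearly the same even in this stretch, and their coding sequences were identical at 1313 of 1338 aligned positions (98.1%). TUBB3 matched TUBB2A at 87.7%, TUBB6 matched TUBB3 at 87.5%, and TUBB matched TUBB6 at 81%. Among the alpha-tubulins TUBA1A, TUBA1B and TUBA1C were 95.9% to 97.2% identical in pairs, and TUBA4A was 84.4% to 85.7% identical to each of them.

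These likenesses bear on how reads are assigned. Of the 50-base windows of each principal transcript, the share found in no transcript of another gene was 99.0% for TUBB6, 69.7% for TUBG1 and 69.2% for TUBB. It was 12.9% for TUBA1B, 48.2% for TUBA1A and 59.9% for TUBA1C, which share windows with each other. It was 34.5% for TUBB2A and 47.8% for TUBB2B, which share their longest run, 725 bases, with each other. Both also share windows with TUBB3 and TUBB4B, and the longest run of each in common with TUBB3 is 185 bases. TUBB3 had 10.6% unique windows, mostly because a same-strand gene named AC092143.1 in GENCODE v29 holds its exons; that gene was not analysed here. Neither the read length nor the treatment of reads with several matches is given in the sources used here, so the levels of TUBA1A, TUBA1B, TUBA1C, TUBB2A, TUBB2B and TUBB3 are uncertain to the extent that reads were split or dropped.

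In cells carrying the E6AP hairpin the beta-tubulins moved apart: TUBB3, TUBB2A and TUBB2B fell to between 36.0% and 55.0% of their wobble level, while TUBB6 was 1.61 times its wobble level. The abundant TUBB did not pass the test. TUBA1A, TUBA1B, TUBA1C and TUBG1 were each called higher, at 1.11 to 1.14 times their wobble level. For TUBA1C the libraries of the groups overlapped, and its call depended on single libraries, as given below. Of the 10 members 5 were called higher, 3 lower and 2 neither; of all 19433 genes tested, 59.0% were called, 28.6% higher and 30.4% lower. All 10 passed the filter on low counts. The median log2 fold change was 0.05 over the members and 0.01 over all genes tested.

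**Figure D1:**
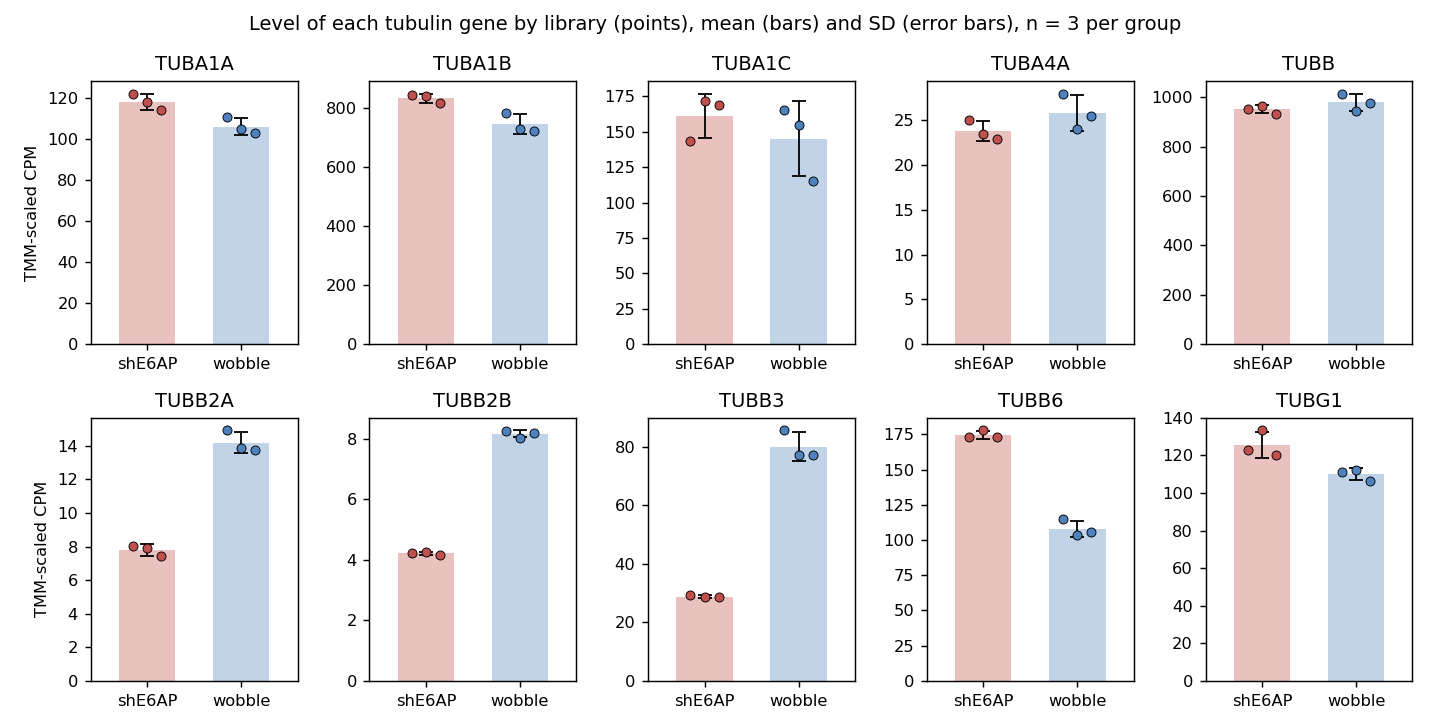
TMM-scaled CPM (vertical axes, each from 0) of the 10 tubulin genes in shE6AP and wobble libraries; points are libraries, bars are the mean of 3 and whiskers its SD. In shE6AP the libraries lie below all wobble libraries for TUBB3 (28.5 to 29.2 against 77.1 to 85.6 CPM), TUBB2A and TUBB2B, and above them for TUBB6 (173 to 178 against 104 to 115 CPM). Of all genes tested, 31.9% had all shE6AP libraries below and 30.6% all above.

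TUBB3, the class III beta-tubulin of neurons, had 833, 612 and 683 reads in shE6AP libraries 1 to 3 and 2591, 2227 and 2092 reads in wobble libraries 1 to 3. Scaled for depth this was 29.2, 28.7 and 28.5 CPM in shE6AP, against 85.6, 77.1 and 77.2 CPM in wobble. The shE6AP libraries were close together and far below every wobble library. All shE6AP libraries lay below all wobble libraries for 31.9% of genes tested. The mean was 28.8 ± 0.377 CPM in shE6AP and 79.95 ± 4.87 CPM in wobble (SD, n = 3 each). The log2 fold change was -1.47 (SE 0.0457, edgeR adjusted p = 7.83e-29), and 259 of the 19433 genes had a lower one. TUBB3 was the member with the smallest p, and the sole member whose fitted fold change reached a halving, which 3.51% of genes did with a call.

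The genes with the pattern most like that of TUBB3 over the 6 libraries, by Euclidean distance of centred log2(CPM + 1) among 5258 genes with a mean within a factor of 2 of it, were AC015917.2, ID3 and TMEM173. AC015917.2 stood at 32.1 ± 0.455 CPM in shE6AP and 91.7 ± 5.58 CPM in wobble (SD, n = 3 each), and its distance to TUBB3 was 0.102. ID3, an inhibitor of basic helix-loop-helix transcription factors, stood at 53.2 ± 2.80 CPM in shE6AP and 145 ± 6.13 CPM in wobble (SD, n = 3 each; distance 0.118). TMEM173, which encodes the innate immune adaptor STING, stood at 32.9 CPM in shE6AP and 85.6 CPM in wobble (distance 0.125).

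TUBB2A had 8.07, 7.92 and 7.42 CPM in shE6AP and 14.9, 13.9 and 13.8 CPM in wobble. Its log2 fold change was -0.86 (SE 0.0763, edgeR adjusted p = 2.80e-13). TUBB2B, its neighbour on chromosome 6, had 4.21, 4.26 and 4.17 CPM in shE6AP and 8.26, 8.03 and 8.19 CPM in wobble. The log2 fold change of TUBB2B was -0.95 (SE 0.0971, edgeR adjusted p = 1.57e-11). For both genes all shE6AP libraries lay below all wobble libraries, as they did for 31.9% of genes tested. With the reads of the pair summed into 1 row, so that a split between them no longer matters, the log2 fold change was -0.90 (SE 0.0629). The sum does not deal with reads from stretches shared with the more abundant TUBB3. Whether such reads had a part in the fall of TUBB2A and TUBB2B was not tested.

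TUBB6, the class V beta-tubulin, moved the other way. It had 173, 178 and 173 CPM in shE6AP and 115, 104 and 106 CPM in wobble, with every shE6AP library above every wobble library, as for 30.6% of genes tested. The mean was 175 ± 2.77 CPM in shE6AP and 108 ± 5.65 CPM in wobble (SD, n = 3 each). Its log2 fold change of 0.69 (SE 0.0361, edgeR adjusted p = 1.14e-20) was exceeded by 1292 of the 19433 genes. TUBB6 is also the member with the highest share of unique windows, given above.

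TUBB, the main beta-tubulin of these cells, had 953, 966 and 934 CPM in shE6AP and 1015, 945 and 978 CPM in wobble. The libraries of the groups overlapped. The log2 fold change was -0.04 with a 95% interval of -0.11 to 0.02 (edgeR adjusted p = 0.270).

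The promoters of the 3 beta-tubulin genes that fell and of TUBB6 are shown so that their letters can be compared. They are RefSeq sequences of GRCh38.p14, each 250 bases before to 50 after the start site; all 10 members matched the promoter table, with 15 entries. Capitals mark the TATA box core TATAAA, the cAMP response element core TGACGT and the box CCAAT on either strand. For TUBB3 and TUBB6 the downstream of 2 entries is given.
TUBB3, chr16:89923092-89923391, plus strand: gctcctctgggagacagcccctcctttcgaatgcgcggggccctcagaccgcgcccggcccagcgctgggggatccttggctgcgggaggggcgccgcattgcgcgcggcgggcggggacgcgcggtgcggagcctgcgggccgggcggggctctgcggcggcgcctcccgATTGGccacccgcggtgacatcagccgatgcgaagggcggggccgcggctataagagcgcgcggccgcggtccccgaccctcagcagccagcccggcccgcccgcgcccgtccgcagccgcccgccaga
TUBB2A, chr6:3157495-3157794, minus strand: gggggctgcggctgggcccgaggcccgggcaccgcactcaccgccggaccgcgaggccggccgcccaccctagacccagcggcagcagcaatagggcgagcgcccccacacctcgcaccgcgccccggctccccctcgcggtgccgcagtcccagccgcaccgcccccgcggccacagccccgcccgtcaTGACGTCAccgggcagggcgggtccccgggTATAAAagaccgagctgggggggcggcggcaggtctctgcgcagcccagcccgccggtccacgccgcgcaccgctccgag
TUBB2B, chr6:3227604-3227903, minus strand: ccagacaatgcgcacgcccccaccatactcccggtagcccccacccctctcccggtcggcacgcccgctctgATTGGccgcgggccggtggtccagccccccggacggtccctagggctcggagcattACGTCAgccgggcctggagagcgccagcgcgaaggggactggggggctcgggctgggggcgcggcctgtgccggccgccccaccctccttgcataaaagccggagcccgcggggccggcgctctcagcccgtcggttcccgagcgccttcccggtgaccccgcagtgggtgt
TUBB6, chr18:12307991-12308290, plus strand: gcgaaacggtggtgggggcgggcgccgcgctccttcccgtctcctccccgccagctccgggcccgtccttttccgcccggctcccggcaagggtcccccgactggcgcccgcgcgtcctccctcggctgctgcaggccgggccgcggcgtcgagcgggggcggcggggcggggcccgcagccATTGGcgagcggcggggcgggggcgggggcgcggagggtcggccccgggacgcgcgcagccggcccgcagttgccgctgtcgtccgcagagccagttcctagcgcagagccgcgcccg
TGACGT was in the TUBB2A promoter on both strands from base -60, as an overlapping palindrome, and in the TUBB2B promoter on the minus strand at base -122; 7.98% of the 35116 promoters in the table hold it. TATAAA was in the TUBB2A promoter at base -30, and 11.5% of promoters hold it. CCAAT was on the minus strand at base -79 in TUBB3, at base -178 in TUBB2B and at base -68 in TUBB6, and 34.6% of promoters hold it. The GC box core GGGCGG, not in capitals, was in all 4 and in 45% of promoters. These matches are descriptions of letters, and none was tested as a site.

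**Figure D2:**
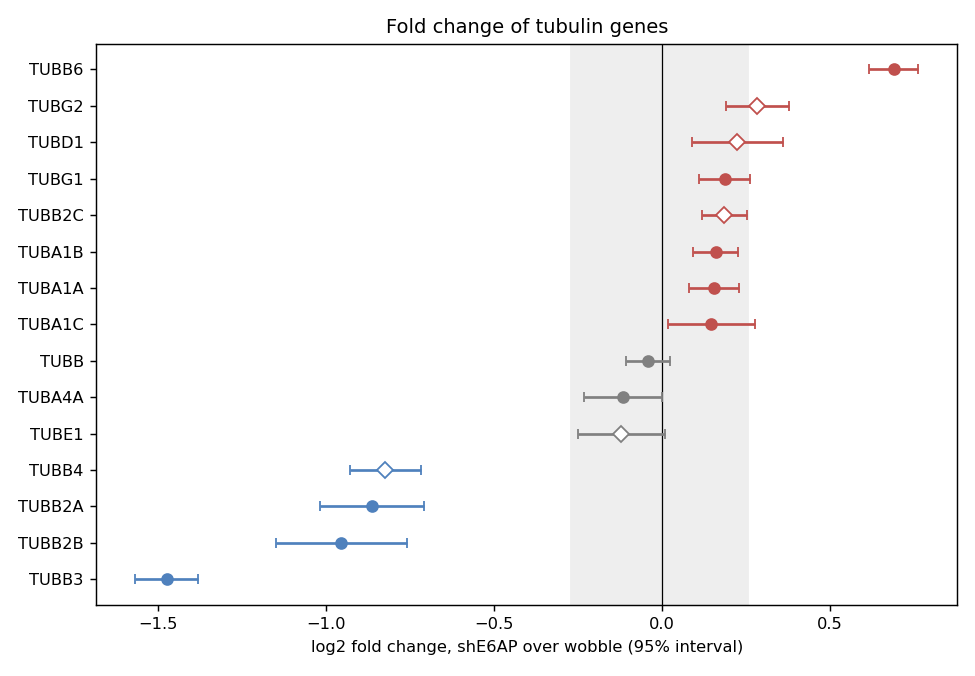
Log2 fold change, shE6AP over wobble, on the horizontal axis, with its 95% interval for the 10 members (filled circles) and 5 further tubulin rows (open diamonds); red marks genes called higher, blue lower, grey neither, and the grey band is the interquartile range over all genes tested, -0.27 to 0.26. TUBB3 is lowest at -1.47 and TUBB6 highest at 0.69.

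The alpha-tubulins changed little. TUBA1B, the most abundant of them, had 843, 839 and 815 CPM in shE6AP and 783, 728 and 723 CPM in wobble. Its log2 fold change was 0.16 (SE 0.0330, edgeR adjusted p = 4.75e-05). TUBA1A, known from developing neurons, had 122, 118 and 114 CPM in shE6AP and 111, 105 and 103 CPM in wobble, with a log2 fold change of 0.15 (SE 0.0369, edgeR adjusted p = 3.68e-04). For both genes every shE6AP library lay above every wobble library, as for 30.6% of genes tested. The wobble libraries spread over more CPM than separated the highest of them from the lowest shE6AP library.

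TUBA1C had 143, 172 and 169 CPM in shE6AP and 165, 155 and 115 CPM in wobble. The groups overlapped, and wobble library 3 was the lowest of the 6. The log2 fold change was 0.15 (SE 0.0639, edgeR adjusted p = 0.0440). The call ended without wobble library 3 (log2 fold change 0.0037, adjusted p = 0.955), without shE6AP library 2 (0.10, adjusted p = 0.223) and without shE6AP library 3 (0.11, adjusted p = 0.195), as well as in DESeq2 (adjusted p = 0.457) and limma-voom (adjusted p = 0.0524). With the reads of TUBA1A, TUBA1B and TUBA1C in 1 row the log2 fold change was 0.16 (SE 0.0345, edgeR adjusted p = 1.05e-04).

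TUBA4A, an alpha-tubulin known from platelets whose gene encodes no final tyrosine, had 25, 23.4 and 22.9 CPM in shE6AP and 27.9, 23.98 and 25.4 CPM in wobble. Its log2 fold change of -0.12 did not pass (edgeR adjusted p = 0.0798); it passed without shE6AP library 1 (-0.16, adjusted p = 0.0336) and without wobble library 2 (-0.17, adjusted p = 0.0180), and with no low-count filter (-0.14, adjusted p = 0.0441). STK16, a kinase gene that overlaps TUBA4A on the other strand, was lower in shE6AP, with 15.6 ± 1.006 CPM against 25.3 ± 0.629 CPM in wobble (SD, n = 3 each). The library kit does not mark strand, so reads of the overlap cannot be told apart. The same limit holds for other members with an opposite-strand overlap in GENCODE v29. There TUBA1A and TUBA1C overlap each other, antisense genes overlap TUBA1B and TUBB, PSMG4 overlaps TUBB2B, and RETREG3 overlaps TUBG1. PSMG4 was called higher, with 24.6 CPM in shE6AP and 20.1 CPM in wobble, and RETREG3 (in the table as FAM134C) did not pass.

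TUBG1, the gamma-tubulin of the centrosomal ring complex, had 123, 133 and 121 CPM in shE6AP and 111, 112 and 106 CPM in wobble. All shE6AP libraries lay above all wobble libraries, as for 30.6% of genes tested. The log2 fold change of TUBG1 was 0.19 (SE 0.0376, edgeR adjusted p = 3.44e-05). Against a fold of 1.2 in place of no change, edgeR's glmTreat kept TUBB6 as the sole higher member and TUBB2A, TUBB2B and TUBB3 as lower, where 13.1% of all genes were higher and 15.9% lower.

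Summed over members, alpha-tubulin stood at 1136 ± 16.2 CPM in shE6AP and 1022 ± 61.2 CPM in wobble (SD, n = 3 each), a difference of 0.15 on the log2 scale. Beta-tubulin stood at 1167 ± 19.0 CPM in shE6AP and 1190 ± 45.6 CPM in wobble (SD, n = 3 each), a difference of -0.03. An exact two-sided permutation test gave p = 0.1 for the alpha sum, the smallest that 3 libraries against 3 allow, and p = 0.6 for the beta sum. In bulk RNA, fewer cells that express a gene and less RNA per cell cannot be told apart.

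Within beta-tubulin the composition shifted. TUBB6 made up 14.8%, 15.01% and 15.1% of the reads of the 5 beta members in shE6AP, against 9.25%, 9.05% and 8.96% in wobble. TUBB3 made up 2.50%, 2.42% and 2.48% in shE6AP, against 6.91%, 6.71% and 6.53% in wobble. These shares need no scaling between libraries, and the groups are far apart in both. TUBB held 81.5 ± 0.103% in shE6AP and 82.3 ± 0.342% in wobble (SD, n = 3 each). TUBB2A held 0.669% in shE6AP and 1.19% in wobble, and TUBB2B 0.361% in shE6AP and 0.686% in wobble. Each of the 5 beta shares differed without overlap, with an exact permutation p = 0.1. Adjusted over the 9 alpha and beta shares tested, the p of this test was 0.15. With n = 3 each, 0.1 is the smallest p possible, so this test could not pass the threshold whatever the shares. Per kilobase of the principal transcript the libraries overlapped for TUBB, which held 76.8% in shE6AP and 76.9% in wobble (exact permutation p = 0.7).

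Alpha-tubulin kept much the same composition, except for the small share of TUBA4A. Of alpha reads, TUBA1B held 73.3 ± 0.933% in shE6AP, against 72.9 ± 1.63% in wobble (SD, n = 3 each; exact permutation p = 0.6). TUBA1A held 10.4% in both groups. TUBA1C ranged from 12.6% to 15.1% in shE6AP and from 11.9% to 15.3% in wobble. TUBA4A held 2.09 ± 0.0975% in shE6AP and 2.52 ± 0.135% in wobble, without overlap (SD, n = 3 each, exact permutation p = 0.1, the smallest possible).

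**Figure D3:**
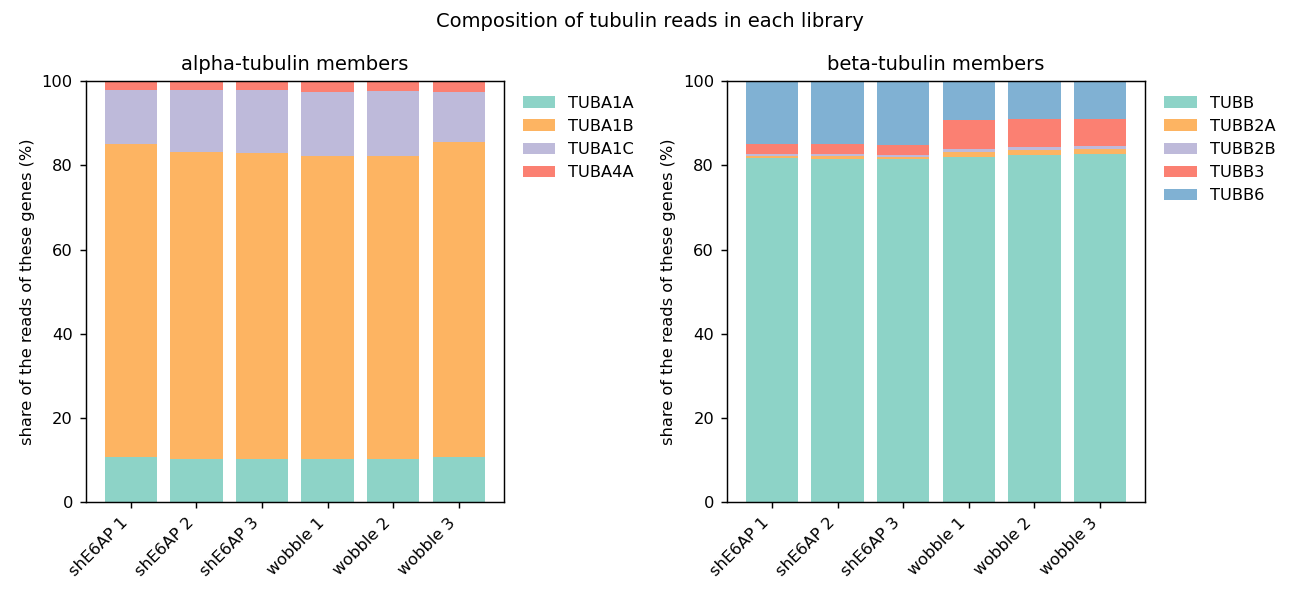
Share of the reads of the alpha-tubulin members (left) and of the beta-tubulin members (right) that each gene takes, in percent (vertical axis), in each of the 6 libraries (horizontal axis); stacked bars sum to 100%. TUBB6 takes 14.8% to 15.1% of beta reads in shE6AP and 8.96% to 9.25% in wobble, and TUBB3 2.42% to 2.50% in shE6AP and 6.53% to 6.91% in wobble.

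Levels between genes were compared as CPM per kilobase of the principal transcript. In shE6AP the order was TUBA1B (512), TUBB (356), TUBB6 (84.6), TUBG1 (77.9), TUBA1A (61.8), TUBA1C (53.8), TUBB3 (16.3), TUBA4A (10.99), TUBB2A (4.89) and TUBB2B (2.09 CPM per kilobase), with no overlap between the libraries of neighbours. In wobble it was TUBA1B (458), TUBB (367), TUBG1 (68.3), TUBA1A (55.5), TUBB6 (52.4), TUBA1C (48.3), TUBB3 (45.2), TUBA4A (11.9), TUBB2A (8.90) and TUBB2B (4.04 CPM per kilobase). In wobble the 4 genes from TUBA1A to TUBB3 overlapped their neighbours in the order. With the union of all coding transcripts' exons as the length, TUBB6 stood at place 4 in shE6AP and 6 in wobble, and TUBB3 fell behind TUBA4A in shE6AP.

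Of the other tubulins, 3 of 8 tested were higher, 1 lower and 4 neither. Over all genes tested 28.6% were higher and 30.4% lower, and a difference from these shares was not tested. TUBB4B (in the table as TUBB2C), a broadly expressed beta-tubulin, had 216, 214 and 213 CPM in shE6AP and 196, 185 and 183 CPM in wobble, a log2 fold change of 0.19. TUBB4A (in the table as TUBB4), a beta-tubulin of brain, had 20.6, 20.8 and 19.0 CPM in shE6AP and 35.2, 36.6 and 34.8 CPM in wobble. Its log2 fold change was -0.82 (SE 0.0521, edgeR adjusted p = 6.97e-18). TUBG2 was higher by 0.28 and TUBD1, the delta-tubulin of centrioles, by 0.22 on the log2 scale, while TUBE1, epsilon-tubulin, did not pass (-0.12). The pseudogene row TUBBP5 was higher (7.45 CPM in shE6AP, log2 fold change 0.41) and TUBB4Q did not pass (-0.03); TUB, which encodes the tubby protein and no tubulin, was lower (-0.60).

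Genes that build, fold, modify or sever microtubules moved both ways, in lists chosen with earlier results of these data known. Each list's counts stand beside calls for 28.6% of all genes tested as higher and 30.4% as lower. Of 19 tested genes of the gamma-tubulin ring complex and its recruiters, 11 were higher and 5 lower, with a median log2 fold change of 0.20 against 0.01 over all genes tested. MZT2A and HAUS1, an augmin subunit, were higher by 0.46 and 0.50, and HAUS4 was lower at -0.68. MZT1, a small subunit of the ring complex, had 11.8, 10.3 and 12.6 CPM in shE6AP and 24.2, 23.6 and 26.8 CPM in wobble (log2 fold change -1.09). The 5 TUBGCP genes, which bind TUBG1 directly or in its complex, were split: TUBGCP3 and TUBGCP5 were higher by 0.20 and 0.30, TUBGCP2 and TUBGCP6 lower at -0.09 and -0.23, and TUBGCP4 did not pass.

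Of 23 tubulin folding genes, 5 were higher and 12 lower (28.6% and 30.4% of all genes), with a median of -0.09. PFDN1, a prefoldin subunit, and CCT8, a chaperonin subunit, were higher by 0.51 and 0.27, whereas CCT7 and ARL2, a GTPase of the tubulin cofactor complex, were lower at -0.46 and -0.60. Of 23 tubulin modifying genes, 4 were higher and 14 lower (28.6% and 30.4% of all genes), with a median of -0.18. TTLL11, a glutamylase, had 6.38, 6.56 and 6.38 CPM in shE6AP and 19.3, 20.7 and 19.0 CPM in wobble (log2 fold change -1.61). AGBL5, a deglutamylase, was lower at -0.64, and TTLL4 and TPGS2 were higher by 0.29 and 0.25.

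Of 32 microtubule-associated and plus-end genes, 15 were higher and 11 lower (28.6% and 30.4% of all genes), with a median of 0.08. EML1, a microtubule-binding protein, had 10.6, 12.7 and 10.6 CPM in shE6AP and 2.51, 2.77 and 2.66 CPM in wobble (log2 fold change 2.08). CLIP1, a plus-end linker, was higher by 0.58, while MAP4 and MAPT, which encodes tau, were lower at -0.40 and -0.57. Of 12 severing and destabilising genes, 3 were higher and 6 lower (28.6% and 30.4% of all genes), with a median of -0.17. STMN1, which sequesters tubulin dimers, had 399, 388 and 396 CPM in shE6AP and 282, 274 and 279 CPM in wobble. FIGN was higher by 0.57, and SPAST, the severing enzyme spastin, and STMN3 were lower at -0.60 and -1.10.

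Of the 4 genes tested for tubulin autoregulation, TTC5 had 19.1, 18.7 and 18.6 CPM in shE6AP and 12.6, 12.98 and 14.7 CPM in wobble (log2 fold change 0.49, SE 0.0659). SCAPER, which joins TTC5 to the deadenylase complex, was higher by 0.21. CNOT1, the scaffold of that complex, was lower at -0.12, and CNOT11 did not pass. So 2 of the 4 were higher and 1 lower, where 28.6% of all genes tested were higher and 30.4% lower. Neuronal and neuroendocrine genes were mostly at low levels, and 7 of 16 were tested. NCAM1 averaged 1.30 ± 0.345 CPM in shE6AP and 0.103 ± 0.0292 CPM in wobble (SD, n = 3 each), and NEFM, a neurofilament chain, 8.51 ± 0.627 CPM in shE6AP and 5.31 ± 0.223 CPM in wobble (SD, n = 3 each). NCAM1 had 29, 36 and 29 reads in shE6AP and 4, 3 and 2 reads in wobble, and so passed the low-count filter only through its shE6AP libraries. NCAM1, NEFM and ENO2 were called higher, and SYP, synaptophysin, was lower at -0.44. That makes 3 higher and 1 lower of the 7 tested, beside 28.6% and 30.4% of all genes. CHGA, chromogranin A, was near 0 at 0.128 CPM in shE6AP and 0.0595 CPM in wobble. The summed level of CHGA and SYP lay between 2.67 and 2.92 CPM in shE6AP and between 3.50 and 4.03 CPM in wobble, and its part in the fall of TUBB3 was not tested.

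**Figure D4:**
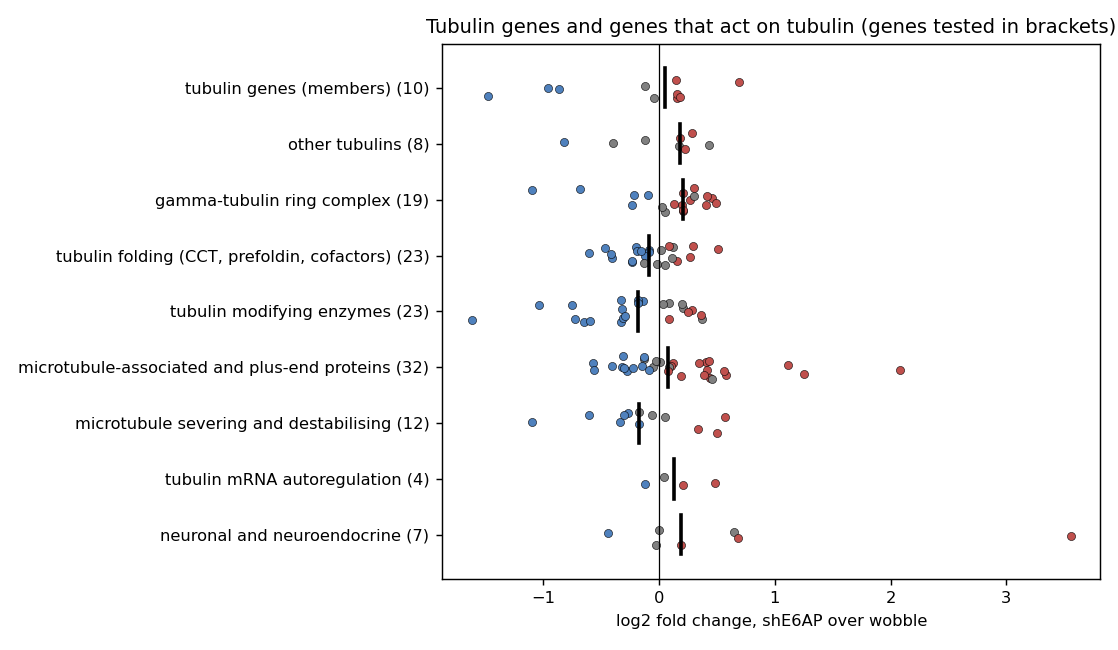
Each tested gene's log2 fold change, shE6AP over wobble, on the horizontal axis (points, scattered vertically for view) of the tubulin members and of 8 lists (vertical axis, genes tested in brackets); red is called higher, blue lower, grey neither, and black bars are medians. Medians run from -0.18 for tubulin modifying genes to 0.20 for the gamma-tubulin ring complex.

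Genes next to the members were counted by call, where over all genes tested 28.6% were higher and 30.4% lower. The 10 nearest tested protein-coding genes around the TUBA1 cluster on chromosome 12 were 4 higher and 5 lower, where 37% of that chromosome's other tested genes were higher and 29.8% lower. Those around TUBB2A and TUBB2B on chromosome 6 were 4 higher and 2 lower, where 30.2% of its other tested genes were higher and 32.8% lower. Around TUBB3, which lies near the end of chromosome 16, 8 neighbours were tested, of which 4 were higher and 1 lower (32.3% and 36.1% on the chromosome), with log2 fold changes of -0.22 to 0.40. The row AC092143.2 was lower, at 17.5 ± 0.662 CPM in shE6AP and 25.3 ± 0.971 CPM in wobble (SD, n = 3 each). In GENCODE v29 a gene of this name overlaps TUBB3 on the other strand. The row was matched by name alone, since the annotation behind the counts is not stated. The library kit does not mark strand, so reads of such an overlap cannot be told apart. TUBB6 lies on chromosome 18, where 65.1% of the 192 other tested genes were higher and 12.5% lower, with a median log2 fold change of 0.29. Among its 10 neighbours 5 were higher and 2 lower, and AFG3L2, which overlaps it on the other strand, was higher by 0.42. The value of TUBB6, 0.69, was above all 10 neighbours, of which PSMG2 was highest at 0.60; whether the chromosome had a part in it was not tested.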

How the data were processed

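Total RNA was extracted with TRIzol and made into TruSeq version 2 libraries, per the labels' protocols. Per the submitters' processing notes, TopHat2 2.0.13, Bowtie2, HTSeq and the build hg19 were used; no annotation, strand setting or read length is stated there. The deposited values are raw counts per gene. Set aside before scaling and testing were 2 HTSeq summary rows (reads outside genes 14.6% to 16.0%, ambiguous reads 2.05% to 2.21%), 1 row without a name (at most 4.59e-05%) and 1 with no values.

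Counts were filtered in edgeR 4.0.16 (R 4.3.3) with filterByExpr, scaled by TMM and put to the quasi-likelihood test with group as the only term and Benjamini-Hochberg adjustment over 19433 genes. SE is |log2 fold change| divided by √F. The pipeline was run on simulated data in which far fewer genes changed than were called here. That run does not show how the scaling behaves with as many calls as in these data. Isotype shares and sums used exact permutation tests (SciPy 1.17.1). DESeq2 1.42.0 and limma 3.58.1 were alternatives. Coding sequences, lengths and windows came from GENCODE v29 (GRCh38), from transcripts tagged principal; coordinates of the counts were not used. Alignments used Biopython 1.88. Every member was named; of each list, up to 2 genes called each way with the smallest p. Rows whose symbol starts with TUB were named from a mean of 1 CPM. ENO2, CHGA, CNOT11 and the neighbouring and overlapping genes were chosen after their values were seen. The members and lists were chosen with earlier results of these data known. List symbols were matched through older symbols where unambiguous (8 of them).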

Additional observations from a re-analysis of the deposited data

How the results depend on the processing

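Of 165 values of the members' fold changes under alternatives, 151 kept their direction and their side of the threshold and none changed sign; TUBB, TUBB2A, TUBB2B, TUBB3 and TUBB6 kept theirs in all. TUBB3 ranged from -1.51 to -1.43 and TUBB6 from 0.66 to 0.73 on the log2 scale. The exceptions were TUBA1C and TUBA4A, described in the report, and, against a fold of 1.2, TUBA1A, TUBA1B and TUBG1. TUBA1C also lost its call with robust dispersion (adjusted p = 0.520). Against a fold of 1.2, 5637 genes passed, and of the members 1 as higher and 3 as lower. With near-identical copies summed, 3 tubulin rows were higher, since 3 rows became 1. Other scalings shifted the all-gene median by at most 0.0283, and the summed beta level, -0.03 as reported, was 0.00069 with upper-quartile scaling.

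Per kilobase, the differences in beta share (shE6AP minus wobble, percentage points) were -0.093 for TUBB, -0.81 for TUBB2A, -0.40 for TUBB2B, -5.96 for TUBB3 and 7.26 for TUBB6, by the change of unit. With TUBB1, TUBB4A and TUBB4B in the denominator, chosen after seeing the data, they were -1.39, -0.447, -0.277, -3.60 and 4.82.

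Deviations of same-numbered libraries correlated at 0.106, 0.0332 and 0.0650, and each library correlated best with its own number. Differently numbered libraries correlated at -0.0704 to 0.0048. All these values are small, and they do not settle whether the numbers pair the libraries. With the replicate number as a block 11979 genes passed, against 11467 without, and TUBA4A was called lower (adjusted p = 0.0285), making 4 lower members. With 3 libraries a group, genes such as TUBB2B, at 91 to 250 reads, rest on the fewest counts among members.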
